A study of Mus musculus with 4 samples.

Results

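The 7 genes described here, Tox, Tcf7, Slamf6, Havcr2, Lag3, Tigit and Entpd1, were chosen by name from the 19059 genes counted in single-cell RNA-seq libraries of CD45+ cells from MC38 tumors, a transplanted mouse colon carcinoma. All 7 were present in the count matrices, and their levels were followed across T cells, NK cells, type 1 innate lymphoid cells (ILC1) and myeloid cells. The tumors grew in hCTLA-4 mice, C57BL/6 animals that carry human CTLA-4, after inoculation of MC38 cells. Mice received 3 treatments once tumors had reached about 100 mm3 and were harvested on day 8 according to the sample records, and the tumors of 11 mice were pooled into 1 sample per group. The isotype control group received hIgG1 at 10 mg/kg, and the combination group received ipilimumab, a human IgG1 antibody to human CTLA-4, at 10 mg/kg together with αFcγRII, the mouse IgG1 antibody AT130-2 to the inhibitory Fc receptor with an altered Fc part, at 20 mg/kg. The other two groups received ipilimumab or αFcγRII alone. For these libraries the sample title and the treatment field name opposite antibodies, so the library titled anti-human CTLA-4 is called single antibody A, the library titled anti-mouse FcgRII is called single antibody B, and which of them received which antibody was not settled. The article gives other numbers of tumors, another day and other doses than the sample records for this experiment.

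T cells that meet antigen for a long time, as in tumors, pass into a state called exhaustion. Tox is a nuclear factor that establishes and maintains this state, and Havcr2 (TIM-3), Lag3 and Tigit are inhibitory surface receptors that exhausted cells carry, while Entpd1 (CD39) is an enzyme that degrades extracellular ATP. A smaller pool of stem-like, or progenitor, exhausted cells keeps the transcription factor Tcf7 (TCF-1) and the surface receptor Slamf6, lacks Havcr2, and renews the others. Several of the genes have other users: Tcf7 is used by naive T cells and by innate lymphoid cells, Havcr2 and Entpd1 by myeloid cells, and Lag3, Tigit and Entpd1 by regulatory T cells (Tregs).

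There was 1 library per group, which leaves no measure of error between replicates, and groups were not tested against each other. Each treatment cannot be told apart from its library. Intervals are 95% intervals and cover counting error only: exact Poisson for a level, exact binomial for a share of cells, exact conditional for a ratio of levels and a log interval for a ratio of shares. Those of levels and of ratios of levels treat UMIs as independent, so the spread between the cells of a class is not in them. A level is a gene's unique molecular identifiers (UMIs) added up within a class and set per 1000000 UMIs of all genes there (CPM). A share is the percent of cells expected to hold a UMI of the gene when each cell is drawn down to 2000 UMIs, shallower cells being left out, so that classes and libraries are compared at the same depth.

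The libraries held 7741, 6046, 5779 and 7219 cells after filtering, in the order isotype control, single antibody A, single antibody B and combination, an order kept throughout, with between 129151823 and 196362818 UMIs in the deposited matrices. No whole barcode occurred in 2 libraries, but each pair shared 712 to 1148 barcodes over the first 16 bases. The article states that samples were hybridized with barcoded probe sets and pooled for loading. The count of whole barcodes therefore does not show separate capture. CD8 T cells, T cells with a UMI of Cd8a or Cd8b1 and none of Cd4 or Foxp3, numbered 117, 339, 98 and 246. Conventional CD4 T cells numbered 120, 190, 43 and 102, Tregs 80, 48, 42 and 9, NK cells with Eomes 151, 185, 86 and 153 and ILC1-like cells with Itga1 or Cd200r1 but no Eomes 50, 64, 39 and 78. Another 110, 107, 68 and 121 T cells, and 153, 177, 110 and 212 NK or ILC1 cells, met none of these rules and enter no subset. The T cell class carried Cd3e at 1292, 1767, 1287 and 1160 CPM in its CD8 cells, and NK cells carried Ncr1 at 1211, 1295, 1045 and 833 CPM. Macrophages had Csf1r at 1526, 1422, 1488 and 1208 CPM, and neutrophils had S100a8 at 13473, 15796, 16969 and 10675 CPM. RNA of macrophages was also counted in T cells: 14 macrophage genes, summed, stood in CD8 T cells at 33.5%, 19.0%, 40.0% and 34.9% of their macrophage level, mostly in a minority of the cells, since the median CD8 T cell had 0.174%, 0.0746%, 0.0950% and 0.186% of its UMIs on them. The part of this RNA in the results was not tested, but values over the cells low in it, with less than 1% of their UMIs on macrophage markers, are given for most results in CD8 T cells. These low cells were 91 of 117, 297 of 339, 69 of 98 and 190 of 246 CD8 T cells. They held 570440 of 1381514, 2507822 of 3793403, 478038 of 1467353 and 1464778 of 3386011 UMIs of the class. A level adds up UMIs, so the cells high in this RNA weigh on it by more than their number.

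The genes differed in the cell types that held most of their UMIs. Over all cells, T, NK and ILC1 cells held 40.2% of the 4444 UMIs of Tox (ENSMUSG00000041272, GRCm38 chr4:6686353-6991557, minus strand), 41.4% of the 6979 of Tcf7 (ENSMUSG00000000782, chr11:52252371-52283014, minus strand), 43.3% of the 21720 of Lag3 (ENSMUSG00000030124, chr6:124904361-124911705, minus strand) and 45.4% of the 912 of Tigit (ENSMUSG00000071552, chr16:43648867-43664146, minus strand), with between 12.7% and 18% in myeloid classes. Myeloid cells instead held 71.1% of the 15177 UMIs of Slamf6 (ENSMUSG00000015314, chr1:171917515-171953170, plus strand), 78.1% of the 90999 of Havcr2 (ENSMUSG00000020399, chr11:46454935-46481255, plus strand) and 80.4% of the 163712 of Entpd1 (ENSMUSG00000048120, chr19:40612366-40741602, plus strand). Most of the remaining UMIs lay in 2 clusters with both lymphocyte and macrophage genes, which held 45.3% of Tox, 31.3% of Tcf7 and 41.8% of Lag3 and were kept out of every class. The mixed T cell cluster held 713, 218, 324 and 633 cells, beside 427, 684, 251 and 478 in the T cell class. With its CD8-gated cells added, CD8 T cells numbered 297, 462, 206 and 588 rather than 117, 339, 98 and 246. The part of CD8 T cells left out thus differed between libraries and was smallest in single antibody A. The parts of the UMIs given here also follow the number and depth of cells, and the part of all genes' UMIs in each class was not set beside them. Macrophages alone were 58.5%, 60.1%, 72.4% and 58.2% of the cells of the libraries. Per UMI, the mean Slamf6 level over libraries was 152 CPM in conventional CD4 T cells against 26.3 CPM in macrophages.

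**Figure D1:**
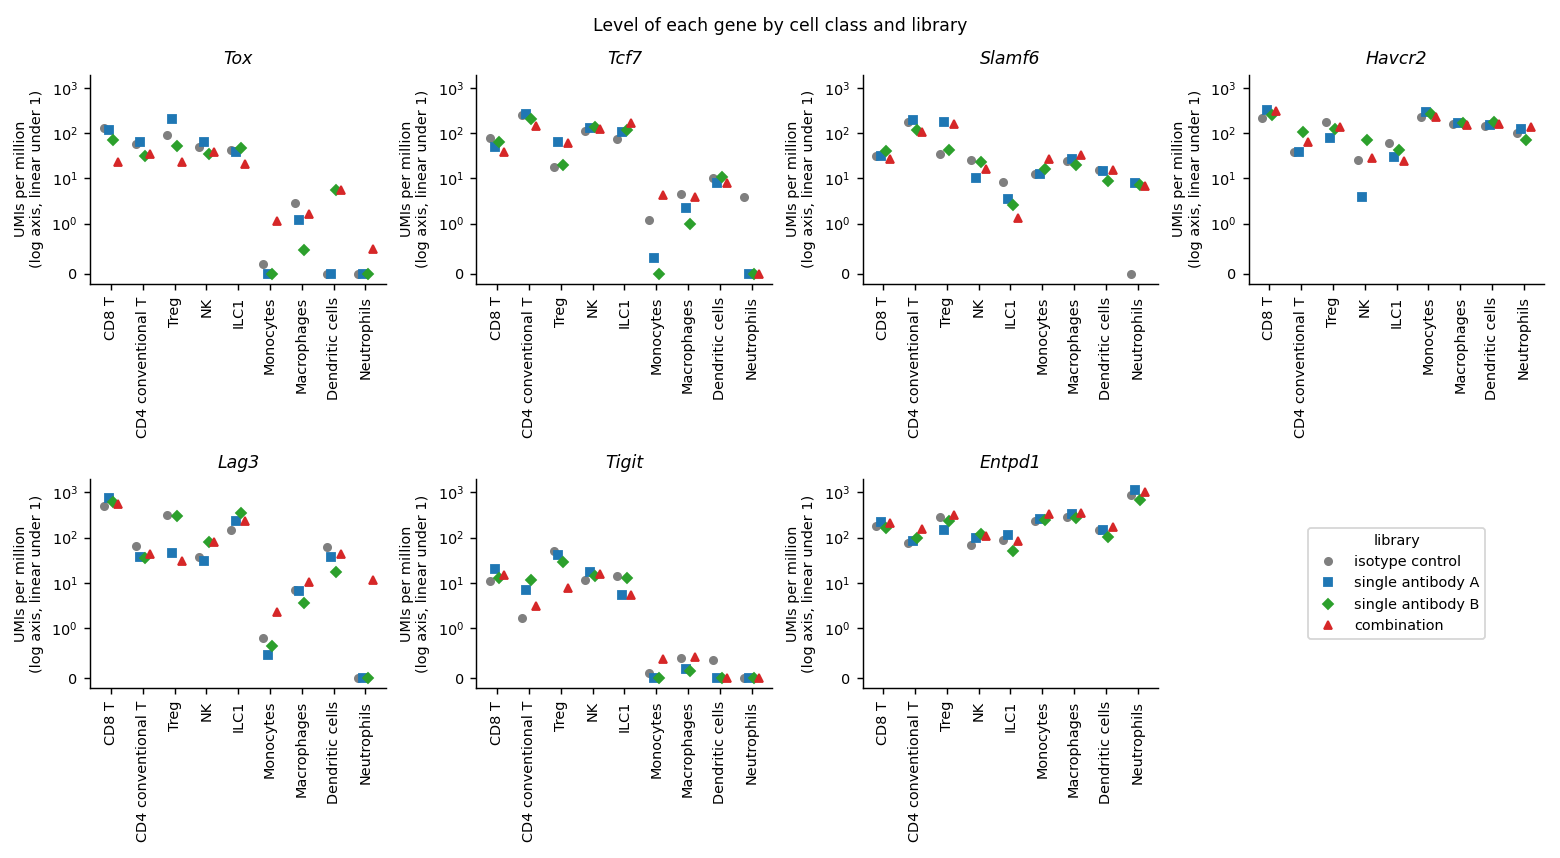
Level of each of the 7 genes (vertical axis, UMIs per 1000000 UMIs of the class, log axis that is linear under 1) in 9 cell classes (horizontal axis), with 1 point per library. Points for Tox, Tcf7 and Tigit drop from lymphoid to myeloid classes. Those for Lag3 drop too, except in dendritic cells, at 17.2 to 61.2 CPM. Havcr2 and Entpd1 stay high in macrophages, at 150 to 173 and 268 to 350 CPM.

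Ordered by their mean level over the 4 libraries, Tox was highest in Tregs, followed by CD8 T cells, conventional CD4 T cells, NK cells and ILC1, with ranges over libraries that overlapped from each class to the next. The means of Tregs and CD8 T cells were 95.2 and 86.8 CPM, and their order came from single antibody A. In each other library Tox was lower in Tregs than in CD8 T cells, by little in the combination, at 23.2 and 23.6 CPM. The lowest ILC1 library, at 20.4 CPM, was above the highest dendritic cell library, at 5.66 CPM. Conventional CD4 T cells had the highest Tcf7 level, above all libraries of NK cells, which were followed by ILC1, CD8 T cells and Tregs with overlapping ranges. For Lag3 the CD8 T cells stood above ILC1, Tregs, NK cells and conventional CD4 T cells, in that order, of which neighbours overlapped. Dendritic cells came next, at 17.2 to 61.2 CPM, and overlapped conventional CD4 T cells, at 35.0 to 65.8 CPM. Havcr2 was highest in CD8 T cells and then monocytes, which overlapped, and the monocytes were above macrophages in every library. Entpd1 was highest in neutrophils, whose lowest library, at 691 CPM, was above the highest macrophage library, at 350 CPM. Slamf6 followed the order conventional CD4 T cells, Tregs, CD8 T cells and macrophages, and Tigit the order Tregs, NK cells, CD8 T cells, ILC1 and conventional CD4 T cells, with overlapping neighbours.

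Tox was lower in CD8 T cells of the combination than in those of every other library. It stood at 132 CPM in isotype control, 120 CPM in single antibody A, 70.9 CPM in single antibody B and 23.6 CPM in the combination, from 183, 456, 104 and 80 UMIs. These were 53.0%, 68.5%, 57.1% and 47.6% of the Tox UMIs of all T cells, including those in no subset. Over all CD8 T cells the intervals of the 4 levels put isotype control and single antibody A together, single antibody B below both, and the combination below all. The place of single antibody B below single antibody A was not kept among cells low in macrophage RNA, given below. The combination stood at 0.178 times isotype control (0.135 to 0.233), 0.197 times single antibody A (0.153 to 0.250) and 0.333 times single antibody B (0.246 to 0.450), and the single antibodies at 0.907 times (0.763 to 1.08) and 0.535 times (0.416 to 0.684) isotype control. At the matched depth a UMI of Tox was expected in 24.4%, 19.4%, 17.1% and 6.38% of CD8 T cells (16.5 to 33.1, 15.4 to 24.3, 10.2 to 26.4 and 3.68 to 10.5), from 112, 327, 93 and 231 cells. Monocytes, a type without Tox, gave shares of 0 to 0.0903% at median depths of 8496 to 10044 UMIs, against median depths of 5298 to 8756 UMIs in CD8 T cells. The CD8 T cell with the most Tox UMIs held 8.20%, 3.73%, 13.5% and 6.25% of them, so that the level did not rest on 1 cell in any library. Finer clustering, at resolution 1.2, moved the ratio to isotype control to 0.275.

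Of the 7 genes, Tox was the only one at least 2-fold lower in the combination than in isotype control in CD8 T cells, and none was at least 2-fold higher. Of the 9036 genes with at least 50 UMIs over both libraries, 1.25% were at least 2-fold lower and 2.16% at least 2-fold higher. The count of the 7 genes was the same against single antibody A, where 1.33% of genes were as much lower and 3.2% as much higher, and against single antibody B, where these were 1.61% and 2.61%. The median ratio of all genes was 0.96, 0.97 and 0.98 for these comparisons. Tcf7, at 0.507 times isotype control, lay just inside the 2-fold limit. Over 15 other settings of the processing the number of genes past it in either direction ranged from 1 to 3, with Tox among them each time, Tcf7 as well in 6 and Slamf6 in 3.

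**Figure D2:**
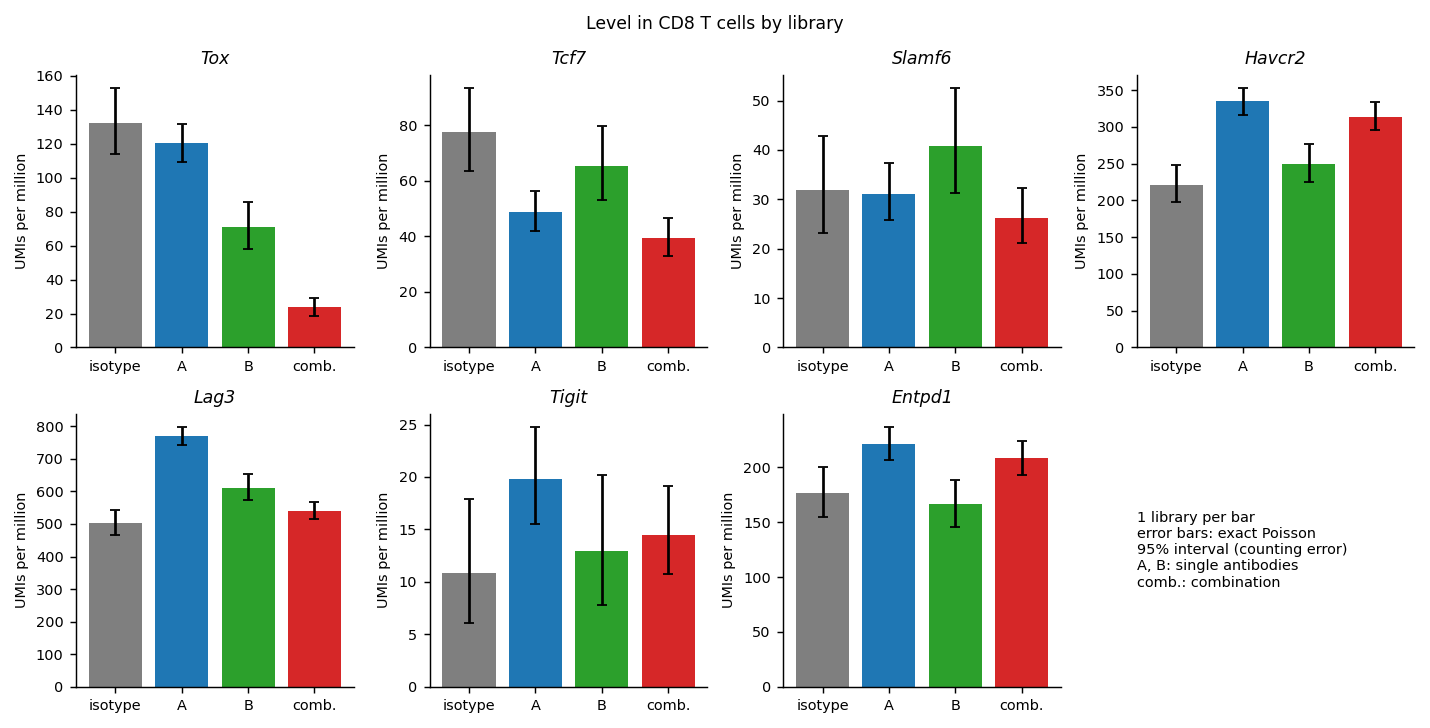
Level of each gene in CD8 T cells (vertical axes, UMIs per 1000000, from 0) in the 4 libraries (A and B are the single antibodies), with error bars for the exact Poisson 95% interval. Tox goes from 132 CPM in isotype control to 23.6 CPM in the combination, while Havcr2, Lag3 and Entpd1 are lowest in isotype control or single antibody B.

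CD8 T cells came from 2 clusters. Cluster 7 held 65, 148, 50 and 136 of them and cluster 18 held 52, 191, 48 and 110, so that cluster 7 had more of these cells in isotype control, single antibody B and the combination, and cluster 18 more in single antibody A. Within cluster 18 Tox stood at 146, 131, 84.1 and 17.0 CPM, with the combination at 0.12 times isotype control, 0.13 times single antibody A and 0.20 times single antibody B. Within cluster 7 it stood at 102, 89.1, 43.7 and 37.7 CPM. Here the combination was at 0.37 times isotype control (0.23 to 0.58) and 0.42 times single antibody A, but at 0.86 times single antibody B, with an interval (0.50 to 1.54) that holds 1. Among CD8 T cells low in macrophage RNA Tox stood at 198, 149, 153 and 41.6 CPM, and the combination at 0.21, 0.28 and 0.27 times the other libraries. The combination was again lowest there, but single antibody B was not below single antibody A.

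The difference in Tox was larger among CD8 T cells with a UMI of Havcr2 than among those without. In cells with a UMI of Havcr2, Tox stood at 126, 127, 65.4 and 15.1 CPM, which put the combination at 0.12 times isotype control (0.083 to 0.170), 0.12 times single antibody A and 0.23 times single antibody B (0.16 to 0.34). In cells without one it stood at 160, 99.5, 100.5 and 68.0 CPM, and the combination at 0.43 times isotype control (0.27 to 0.68), 0.68 times single antibody A (0.45 to 1.01) and 0.68 times single antibody B (0.39 to 1.19). The intervals for cells with and without Havcr2 did not overlap for any of the 3 comparisons, which covers counting error only. A split by Lag3 gave 0.16, 0.18 and 0.31 with a UMI and 0.32, 0.49 and 0.57 without, and a split by Pdcd1, the gene of PD-1, gave 0.15, 0.18 and 0.30 with and 0.49, 0.42 and 0.66 without. The intervals with and without overlapped for Pdcd1 in all 3 comparisons and for Lag3 against isotype control and single antibody B. Tcf7 did not split the cells in this way, with ratios of 0.21, 0.17 and 0.20 in cells with a UMI and 0.16, 0.22 and 0.41 in cells without. These splits used all UMIs of a cell, and cells with a UMI of Havcr2 were deeper, with medians of 10897 to 15484 UMIs against 4068 to 4754. The splits also kept cells with macrophage RNA, whose part was not tested.

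**Figure D3:**
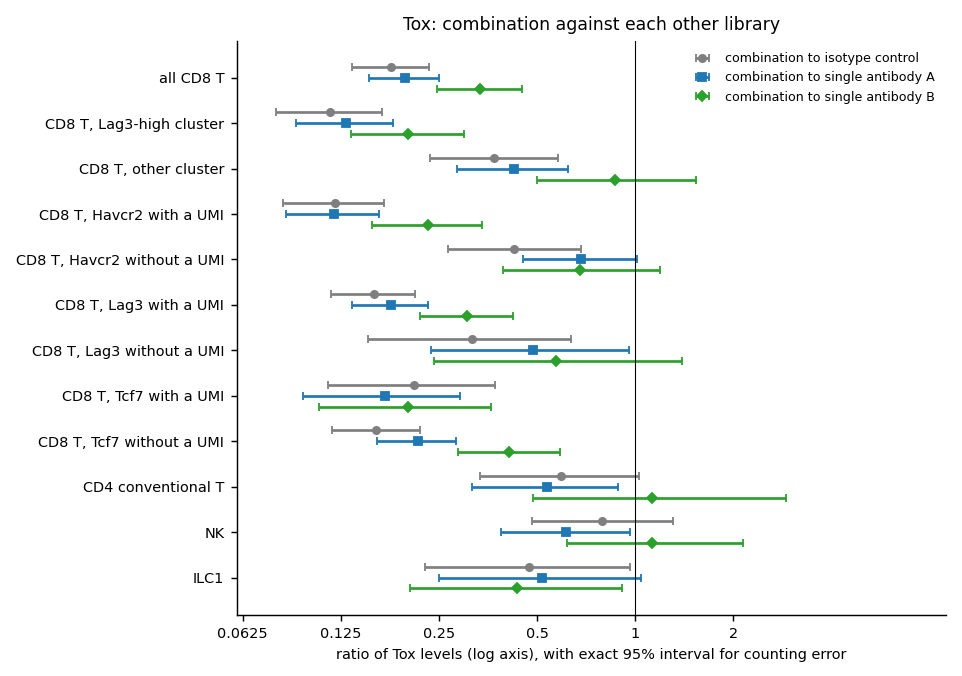
Ratio of the Tox level in the combination to that in each other library (horizontal axis, log) for CD8 T cells and other classes (rows), with lines for the exact 95% interval. All 3 ratios lie under 0.5 in the row of all CD8 T cells, but not in every row of CD8 T cell subsets. The intervals of the ratio to isotype control reach 1 in conventional CD4 T cells and NK cells.

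Conventional CD4 T cells had 59.1, 65.0, 31.1 and 34.9 CPM of Tox, from 35, 57, 8 and 23 UMIs, so that the combination stood at 0.59 times isotype control (0.33 to 1.03) and 0.54 times single antibody A (0.32 to 0.88), and at 1.12 times single antibody B (0.485 to 2.90). NK cells had 49.4, 63.9, 34.8 and 39.2 CPM, at 0.79 times isotype control (0.48 to 1.31). In ILC1-like cells Tox was at 43.0, 39.4, 46.9 and 20.4 CPM and the combination at 0.47 times isotype control (0.23 to 0.96), 0.52 times single antibody A (0.249 to 1.04) and 0.43 times single antibody B (0.204 to 0.913). Tregs showed the highest Tox level of any class in single antibody A, at 212 CPM, against 92.8 CPM in isotype control, 52.5 CPM in single antibody B and 23.2 CPM in the combination. The last value rested on 3 UMIs from 9 cells, so that its ratios of 0.25 to isotype control (0.0498 to 0.778), 0.11 to single antibody A (0.0220 to 0.335) and 0.44 to single antibody B (0.0853 to 1.46) carry wide intervals. The cells of the mixed T cell and macrophage cluster had Tox at 30.5, 39.4, 25.4 and 13.9 CPM, the combination being lowest, at 0.46, 0.35 and 0.55 times the others. For these values the cluster was not split into T cell subsets. Foxp3 and Cd8a were both among its leading genes, and the part of Tregs in these ratios was not tested.

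Tcf7, the factor of the stem-like state, was lower in CD8 T cells of the combination and of single antibody A than in those of the other libraries. It stood at 77.5, 48.8, 65.4 and 39.3 CPM, and a UMI of it was expected in 20.0%, 11.7%, 18% and 9.80% of cells at the matched depth. The combination was at 0.51 times isotype control (0.39 to 0.66) and 0.60 times single antibody B (0.46 to 0.79). Against single antibody A it was at 0.81 times, with an interval (0.64 to 1.01) that holds 1. Cluster 7 carried most of this gene per UMI, at 184, 169, 152 and 93.9 CPM, and there the combination stood below all 3 others, at 0.51, 0.56 and 0.62 times, while in cluster 18 the levels were 29.4, 9.12, 23.3 and 13.5 CPM, with single antibody A lowest. Among cells low in macrophage RNA the levels were 147, 66.2, 123 and 52.6 CPM.

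Conventional CD4 T cells held more Tcf7, at 253, 273, 210 and 143 CPM. The combination was lowest, at 0.56 times isotype control (0.43 to 0.73), 0.52 times single antibody A (0.408 to 0.667) and 0.68 times single antibody B (0.481 to 0.968). A UMI was expected in 38.2%, 36.3%, 33.6% and 19.4% of these cells at the matched depth. Nearly all of them lay in cluster 7.

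Slamf6, a homotypic receptor of the SLAM family that marks the stem-like pool in T cells, showed a smaller difference in CD8 T cells. Its levels there were 31.8, 31.1, 40.9 and 26.3 CPM, with the combination at 0.83 times isotype control (0.57 to 1.21) and 0.84 times single antibody A (0.63 to 1.12), both intervals holding 1, and at 0.64 times single antibody B (0.46 to 0.91). The gene is also read in macrophages, and among CD8 T cells low in macrophage RNA it stood at 54.3, 33.5, 69.0 and 22.5 CPM, which moved the ratio to isotype control to 0.41 and that to single antibody B to 0.33. With no doublets left out the ratio to isotype control was 0.489. In cluster 7 the levels were 62.8, 73.2, 74.9 and 37.7 CPM and in cluster 18 they were 17.9, 17.2, 24.3 and 20.9 CPM, so that the combination was lowest in the first cluster only. Conventional CD4 T cells carried Slamf6 at 179, 201, 121 and 108 CPM, with ratios of 0.60 (0.44 to 0.82), 0.54 and 0.89 (0.579 to 1.41). Tregs went the other way, at 35.6, 174, 41.6 and 163 CPM from 18, 50, 19 and 21 UMIs, with single antibody A and the combination above the other two, and the combination at 4.58 times isotype control (2.32 to 9.11) from 9 cells.

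Cells with a UMI of Tcf7 and none of Havcr2, the usual definition of stem-like CD8 T cells, made up the smallest share of CD8 T cells in the combination. At the matched depth they were 18.5% (12 to 27.2) of the class in isotype control, 11.3% (8.09 to 15.3) in single antibody A, 16.7% (10.2 to 26.4) in single antibody B and 9.31% (6.07 to 14.1) in the combination. These were 20.7, 37.0, 15.5 and 21.5 expected cells, so their number was not lowest in the combination. All CD8 T cells were 1.51%, 5.61%, 1.70% and 3.41% of the cells of the libraries. The combination had 0.50 times the share of isotype control (0.29 to 0.88), and its ratios to single antibody A, at 0.82 (0.50 to 1.36), and single antibody B, at 0.56 (0.30 to 1.02), have intervals that hold 1. Among cells low in macrophage RNA the ratio to isotype control was 0.466 (0.260 to 0.836). Without drawing cells down the shares were 23.2%, 18.3%, 20.4% and 13.0%. Cells with Havcr2 and no Tcf7, the terminal side of the scheme, made up 24.5%, 33.5%, 26.1% and 34.7%, with the combination at 1.42 times isotype control (0.98 to 2.05). Both genes together were expected in 0.398% to 1.56% of cells.

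Most of these stem-like profiles lay in cluster 7, where they made up 29.9%, 24.5%, 30.03% and 16.3% of the CD8 T cells, against 5.22%, 1.73%, 3.65% and 1.45% in cluster 18. Within cluster 7 the combination was at 0.55 times isotype control (0.31 to 0.95). In conventional CD4 T cells, 37.2%, 35.2%, 32.4% and 19.3% had Tcf7 without Havcr2, and the combination was at 0.52 times isotype control (0.32 to 0.84), 0.55 times single antibody A and 0.59 times single antibody B (0.32 to 1.10).

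**Figure D4:**
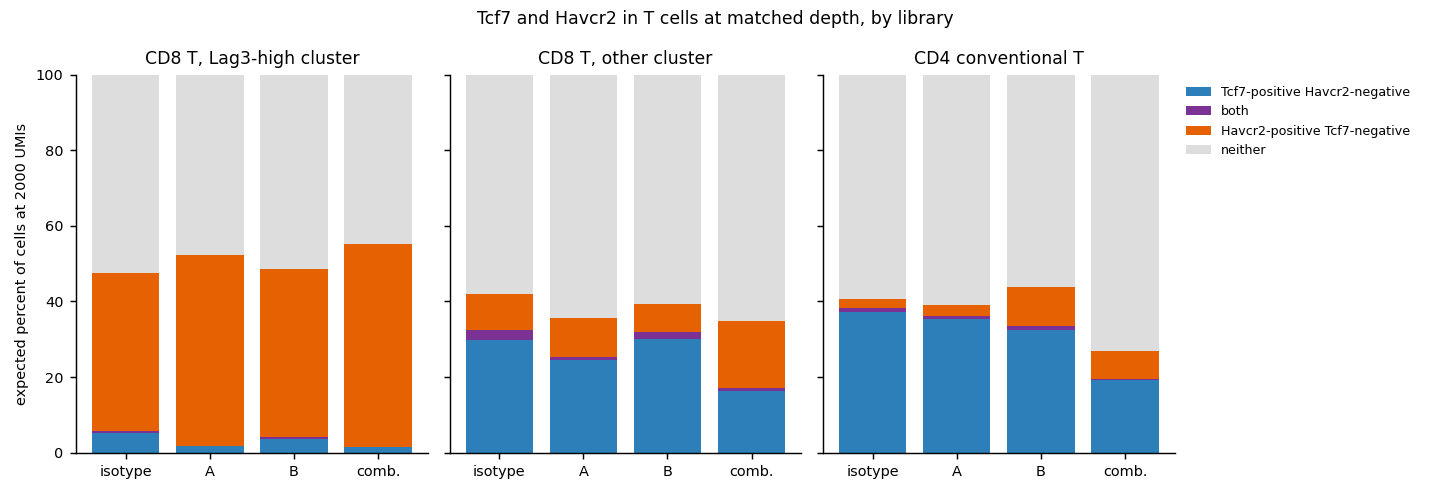
Expected percent of cells at 2000 UMIs (vertical axis) with a UMI of Tcf7 only, Havcr2 only, both or neither, in the 4 libraries, for CD8 T cells of cluster 18 (titled Lag3-high cluster) and of cluster 7 (titled other cluster) and for conventional CD4 T cells. Tcf7 without Havcr2 goes from 29.9% in isotype control to 16.3% in the combination in cluster 7, and from 37.2% to 19.3% in conventional CD4 T cells.

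The inhibitory receptors did not follow Tox. Havcr2 in CD8 T cells stood at 221, 335, 250 and 314 CPM and was expected in 26.1%, 33.9%, 27.4% and 35.2% of them, so that single antibody A and the combination were above the other two libraries. The combination was at 1.42 times isotype control (1.25 to 1.61), 1.26 times single antibody B (1.11 to 1.42) and 0.94 times single antibody A (0.86 to 1.02). Among cells low in macrophage RNA it stood at 256, 360.1, 293 and 369 CPM, with the combination at 1.44 times isotype control (1.2 to 1.74). It was above isotype control in each cluster, at 278, 407, 325 and 391 CPM in cluster 18 and at 95.4, 115, 95.7 and 151 CPM in cluster 7. The levels over all CD8 T cells were 135%, 202%, 145% and 209% of those in macrophages, where the 14 macrophage genes stood at 19.0% to 40.0% of theirs.

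Lag3, a receptor that binds MHC class II, was highest in single antibody A over all CD8 T cells. Its levels were 504, 770, 612 and 541 CPM, and a UMI was expected in 41.9%, 54.4%, 44.6% and 46.0% of cells. The combination was at 1.07 times isotype control (0.98 to 1.17), 0.70 times single antibody A (0.66 to 0.74) and 0.88 times single antibody B (0.82 to 0.96). The clusters differed in this: in cluster 18, at 674, 954, 872 and 671 CPM, isotype control and the combination were lowest, and in cluster 7, at 128, 215, 79.0 and 266 CPM, the combination was highest, at 2.08 times isotype control (1.55 to 2.83) and 3.37 times single antibody B (2.39 to 4.85). Among cells low in macrophage RNA Lag3 was highest in single antibody B instead, and the combination was at 1.05 times isotype control (0.942 to 1.17). Tigit, a receptor for Pvr, was counted in few CD8 T cells, with 15, 75, 19 and 49 UMIs, levels of 10.9, 19.8, 12.9 and 14.5 CPM and the combination at 1.33 times isotype control (0.74 to 2.56), which the depth does not tell from 1. Among cells low in macrophage RNA that ratio was 2.17 (0.960 to 5.75), from 7 and 39 UMIs.

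Entpd1 over all CD8 T cells was higher in single antibody A and the combination, at 177, 221, 166 and 209 CPM, with the combination at 1.18 times isotype control (1.02 to 1.37) and 1.25 times single antibody B (1.08 to 1.46). In cluster 18 it stood at 159.7, 247, 172 and 220.5 CPM, and in cluster 7 at 214, 144, 154 and 183 CPM, where isotype control was highest and the ratio to it was 0.856 (0.665 to 1.11). Clustering at resolution 0.4 gave 1.01 (0.846 to 1.22). Among cells low in macrophage RNA the order of isotype control and single antibody B turned, at 123, 195, 155 and 168 CPM. Over all CD8 T cells Entpd1 stood at 60.4%, 65.9%, 62.1% and 59.5% of its macrophage level, where the macrophage genes stood at 33.5%, 19.0%, 40.0% and 34.9% of theirs. Conventional CD4 T cells had 75.9, 85.6, 97.2 and 155 CPM of Entpd1, the combination being highest at 2.04 times isotype control (1.42 to 2.96), 1.81 times single antibody A and 1.59 times single antibody B (1.02 to 2.58). It was the only one of 6 measured genes at least 2-fold higher there than in isotype control, where 2.75% of all genes were. Macrophage genes stood in these cells at 18.7%, 5.99%, 43.5% and 19.2% of their macrophage level, and their part in the Entpd1 values was not tested.

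**Figure D5:**
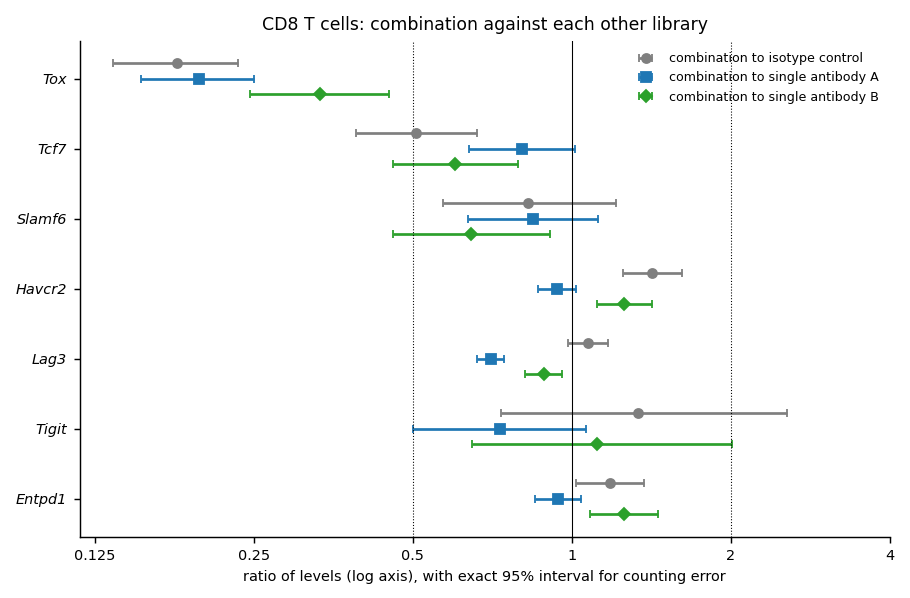
Ratio of the level in CD8 T cells of the combination to that of each other library (horizontal axis, log) for the 7 genes (rows), with lines for the exact 95% interval. Tox lies at 0.178, 0.197 and 0.333, apart from the other 6 genes, whose 3 ratios lie between 0.51 and 1.42.

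Within CD8 T cells the genes of each side of the scheme were found together more often than their shares alone would give. At the matched depth Tcf7 and Slamf6 shared cells at 3.41, 3.16, 1.34 and 2.90 times the product of their shares in the 4 libraries. Havcr2 and Lag3 were expected together in 16.4%, 24.7%, 19.0% and 20.9% of cells, 1.5, 1.34, 1.56 and 1.29 times the product, and Havcr2 and Entpd1 shared cells at 1.23, 1.47, 1.42 and 1.24 times it. Across the sides the values were under 1: Tcf7 with Havcr2 gave 0.30, 0.10, 0.26 and 0.14, Tcf7 with Lag3 gave 0.35, 0.35, 0.30 and 0.42 and Tcf7 with Entpd1 gave 0.37, 0.25, 0.35 and 0.55. Tox was found with Lag3 at 1.36, 1.27, 1.32 and 1.26 times the product. With Havcr2 it was at 1.18, 1.12 and 1.26 times in the first 3 libraries and at 0.65 in the combination, and with Tcf7 at 0.65, 0.74 and 0.61 and then at 1.76. These values rest on few cells with both genes, for Tox in the combination above all, and carry no interval. Havcr2 and Entpd1 are also read in macrophages. Cells with macrophage RNA were kept in, and its part in these values was not tested.

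Tregs took part of the T cell level of several genes, and their number differed between libraries. They were 18.7%, 7.02%, 16.7% and 1.88% of T cells and held 42.4%, 12%, 33.3% and 1.35% of the Tigit UMIs of T cells, 20.1%, 3.93%, 21.6% and 3.06% of those of Entpd1 and 13.4%, 0.396%, 11.3% and 0.175% of those of Lag3. For Tigit they held more than their share of cells in isotype control, single antibody A and single antibody B, but not in the combination, where 1 UMI lay in 9 Tregs. Leaving them out did not move the Tox level of T cells by much, from 87.9, 113, 60.3 and 27.2 CPM to 87.1, 107, 61.7 and 27.3 CPM. In the Tregs Lag3 stood at 316, 45.2, 299.7 and 31.0 CPM, so that single antibody A and the combination were below the other libraries, and the combination was at 0.098 times isotype control (0.0264 to 0.256) and 0.685 times single antibody A (0.163 to 2.22), from 160, 13, 137 and 4 UMIs. Tox and Lag3 were at least 2-fold lower in Tregs of the combination than of isotype control, 2 of 4 measured genes, where 8.8% of all genes were. Tigit stood at 49.4, 41.8, 28.4 and 7.75 CPM in Tregs, Havcr2 at 174, 80.0, 127 and 139 CPM and Entpd1 at 281, 150, 230 and 310 CPM.

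Tcf7, which innate lymphoid cells need for their development, had a higher level in ILC1-like cells of the combination than in those of isotype control and single antibody A. They had it at 75.8, 106, 120 and 167 CPM, with the combination at 2.20 times isotype control (1.51 to 3.27), 1.58 times single antibody A (1.15 to 2.19) and 1.39 times single antibody B (0.99 to 2.00). At the matched depth the shares were 16.7%, 22.6%, 21.1% and 26.6%, with a ratio to isotype control of 1.60 (0.765 to 3.34) that 48 and 75 cells do not tell from 1. It was 1 of 3 measured genes at least 2-fold higher than in isotype control, where 1.7% of all genes were. NK cells held it at 110, 129, 137 and 124 CPM, with the combination at 1.12 times isotype control (0.832 to 1.52), 0.96 times single antibody A and 0.90 times single antibody B, all 3 intervals holding 1.

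Lag3 was higher in ILC1-like than in NK cells in each library. ILC1-like cells had 143, 237, 354 and 238 CPM, with isotype control lowest and single antibody B highest, and NK cells had 37.8, 29.99, 79.9 and 80.5 CPM. In NK cells the combination was at 2.13 times isotype control (1.35 to 3.47), 2.68 times single antibody A (1.66 to 4.49) and 1.01 times single antibody B (0.675 to 1.53). Of 4 measured genes it was the only one at least 2-fold higher in NK cells than in isotype control, where 1.74% of all genes were. Havcr2 in NK cells rested on 18, 3, 35 and 26 UMIs, at 26.2, 3.91, 71.7 and 28.3 CPM, and macrophage genes stood there at 10.2%, 4.22%, 21.8% and 14.3% of their macrophage level, in the same order of libraries. Slamf6 was near its floor in ILC1-like cells, with 4, 2, 1 and 1 UMIs. Entpd1 in NK cells stood at 69.8, 96.5, 119 and 111 CPM and Tigit at 11.6, 17.0, 14.3 and 15.2 CPM.

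Among myeloid cells Havcr2 was lower in some macrophages of the combination. Over all macrophages it stood at 164, 165, 173 and 150 CPM and was expected in 27.8%, 27.4%, 28.7% and 24.6% of cells, with the combination at 0.92, 0.91 and 0.87 times the others. Cluster 13, led by Mmp12, Cxcl3 and Nos2, had it at 153, 147, 128 and 88.7 CPM, at 0.58 times isotype control (0.51 to 0.66), 0.61 times single antibody A and 0.70 times single antibody B, and it held 110, 152, 114 and 341 cells. In cluster 1, led by Ctsk and Hspb1, the levels were 143, 141, 158 and 106 CPM, and in cluster 2, led by Gbp2b, H2-Eb1 and Cxcl9, they were 190, 183, 204 and 142 CPM, again lowest in the combination. Cluster 14 went the other way, at 140, 128, 144 and 162 CPM. Monocytes had 231, 298, 263 and 229 CPM and dendritic cells 142, 150, 177 and 160 CPM, with the combination inside the range of the others in dendritic cells.

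Entpd1 and Slamf6 were higher in monocytes of the combination. Entpd1 stood there at 231, 261, 243 and 337 CPM, with the combination at 1.46 times isotype control (1.38 to 1.54), 1.29 times single antibody A and 1.38 times single antibody B. Monocytes came from 2 clusters in unlike parts, with 534, 305, 170 and 213 cells in cluster 9 and 477, 361, 257 and 423 in cluster 6, so that the combination had more of its monocytes in cluster 6, where Entpd1 was higher. Within clusters the combination stood at 1.73 times isotype control (1.52 to 1.97) in cluster 9 and 1.15 times (1.08 to 1.23) in cluster 6. Cluster 9 was led by Ace and Adgre4, genes of patrolling monocytes, and held Entpd1 at 105, 98.9, 85.6 and 182 CPM, and cluster 6 was led by Plac8 and Chil3 and held it at 354, 379, 330 and 407 CPM. Slamf6 in monocytes stood at 12.2, 12.3, 16.4 and 26.6 CPM, expected in 2.04%, 1.93%, 3.09% and 4.58% of cells, with the combination at 2.18 times isotype control (1.74 to 2.74), 2.17 times single antibody A (1.67 to 2.84) and 1.62 times single antibody B (1.25 to 2.14). Within cluster 6 the ratio to isotype control was 1.80 (1.39 to 2.35), and within cluster 9 it was 2.21 (1.32 to 3.71). Of the genes tested in monocytes, 2.84% were at least 2-fold higher than in isotype control and 2.61% than in single antibody A. In macrophages Slamf6 was at 24.5, 27.5, 20.0 and 33.3 CPM and Entpd1 at 293, 336, 268 and 350 CPM, both highest in the combination. In neutrophils Entpd1 was at 890, 1144, 691 and 1013 CPM and expected in 70.6% to 74.6% of cells.

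Small amounts of the lymphoid genes were also counted in macrophages. Tox, Tcf7, Lag3 and Tigit were each at least 2-fold higher in macrophages of the combination than of single antibody B, where 5.9% of all genes were, at levels of 0.411 to 10.1 CPM in the combination. Cd3e in the same macrophages stood at 32.4, 14.3, 7.74 and 29.9 CPM and Trac at 57.1, 23.6, 13.5 and 40.2 CPM, also lowest in single antibody B, whereas Lag3 was highest in the combination, at 6.94, 6.41, 3.59 and 10.1 CPM, and Cd3e and Trac in isotype control. The part of this RNA in the 4 ratios was not tested. Dendritic cells held values of their own: Tcf7 stood at 55.4, 80.9, 113 and 30.5 CPM in cluster 25, led by Ccr7, Ccl22 and Fscn1, genes of migratory dendritic cells, against at most 3.34 CPM in cluster 16, led by Cd209a, Kmo and Siglech, and Lag3 stood at 70.9, 40.3, 19.0 and 53.8 CPM in cluster 16 and at 0, 0, 0 and 7.04 CPM in cluster 25. Which cells of cluster 16 held Lag3 was not tested.

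The other genes of the T cell states were read from 5 lists. Cells with macrophage RNA were kept in for all 5, and the part of this RNA in the list values was not tested. Of the progenitor and stem-like list, 16 of 17 genes were measured in CD8 T cells. Against isotype control 0 were at least 2-fold higher in the combination and 4 at least 2-fold lower, beside 2.16% and 1.25% of all genes. The median ratio of the list was 0.83 beside 0.96 for all genes. Among the 4 were S1pr1, Id3 and Ccr7. S1pr1 and Ccr7 guide T cells through lymph nodes and out of them, and Id3 restrains effector differentiation. Ccr7 stood at 104, 71.4, 57.9 and 34.8 CPM and Id3 at 39.8, 16.9, 23.2 and 13.6 CPM, while at the other end of the list Bcl6 stood at 65.1, 55.9, 70.9 and 91.3 CPM and Satb1 at 207, 279, 242 and 248 CPM. Against single antibody A only Ccr7 was as much lower and against single antibody B only Klf2, with median ratios of 0.88 and 0.84. Of all genes 1.33% and 1.61% were as much lower in these comparisons.

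From the terminal exhaustion list Tox itself was kept out. Of its 20 genes 19 were measured in CD8 T cells, and 5 stood at least 2-fold above isotype control in the combination and 0 as much below, beside 2.16% and 1.25% of all genes, with a median ratio of 1.35. They were Rgs16, Nr4a3, Cd38, Prdm1 and Nr4a1. Nr4a1 and Nr4a3 are immediate-early genes of T cell receptor engagement, and Nr4a1 stood at 159, 234, 96.1 and 391 CPM. Nr4a1 was also among the leading genes of monocyte cluster 9. Rgs16, a regulator of G protein signalling, stood at 487, 831, 549 and 1151 CPM. Eomes, at the low end of the list's ratios, stood at 54.3, 65.1, 47.7 and 47.0 CPM. Against single antibody A no gene of the list was 2-fold apart and its median was 0.92, and against single antibody B 5 were higher, with a median of 1.32. Of all genes 3.2% were as much higher and 1.33% as much lower against single antibody A, and 2.61% and 1.61% against single antibody B. Pdcd1 stood at 519, 983, 649 and 707 CPM, highest in single antibody A, as was Lag3 over all CD8 T cells.

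Effector genes gave 4 of 14 measured at least 2-fold higher against isotype control, Ifng, Ccl3, Ccl4 and Tnf, and 0 lower, beside the same 2.16% and 1.25% of all genes, with a median of 1.28. Ccl3, a chemokine for myeloid cells and T cells, stood at 730, 925, 379 and 2033 CPM and the cytokine Tnf at 127, 271, 134 and 332 CPM. Gzma, at 169, 149, 159 and 120 CPM, had the lowest ratio of the list and Fasl, at 176, 249, 161 and 194 CPM, the next. Against single antibody A only Ccl3 was 2-fold higher, beside 3.2% of all genes, and the median was 0.86. Against single antibody B Ifng, Ccl3, Ccl4 and Tnf were at least 2-fold higher and 0 genes lower, with a median of 1.42. Of all genes 2.61% were as much higher and 1.61% as much lower there. Of 10 other inhibitory and paired receptors 1 was at least 2-fold lower against isotype control, beside 1.25% of all genes, and the median was 1.13. It was Btla, at 23.9, 14.0, 23.2 and 8.56 CPM. Klrc1, the gene of NKG2A, stood at 513, 881, 596 and 709 CPM, also highest in single antibody A, and Cd200r1 at 26.1, 42.2, 34.1 and 50.8 CPM, while Cd244a stood at 68.8, 100.2, 98.8 and 62.6 CPM. In conventional CD4 T cells the progenitor list had 2 of 13 measured genes lower, S1pr1 and Klf2, with a median of 0.75, and the terminal list 4 of 13 higher, Pdcd1, Rgs16, Tnfrsf9 and Bhlhe40, with a median of 1.62, beside 0.97 for all genes, of which 2.75% were as much higher and 1.78% as much lower. The effector list there had 2 of 12 measured genes higher, Ccl4 and Tnf, and 3 lower, Ifng, Gzmk and Gzmb. Against single antibody A the terminal list had 2 of 16 genes higher and 2 lower, where 3.92% and 1.6% of all genes were, and against single antibody B 2 of 13 higher and 3 lower, where 3.86% and 3.02% were. Nr4a1 and Nr4a3 were among the lower genes in both of these comparisons. The progenitor list had 1 of 15 genes higher and 2 lower against single antibody A, with a median of 0.79. Against single antibody B it had 1 of 12 higher and 0 lower, with a median of 0.88. The same shares of all genes stand beside these counts.

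The ligands of the receptors were read where they are made. Lgals9, a ligand of TIM-3, stood at 320, 322, 318 and 320 CPM in monocytes and at 314, 310, 323 and 238 CPM in macrophages, lowest in the combination in the second. Ceacam1, another ligand of TIM-3, stood at 254, 239, 164 and 127 CPM in monocytes, in the same order as the part of the monocytes that lay in cluster 9, of which it is a leading gene. Lgals3, a galectin that binds LAG-3, was highest in the combination in macrophages, at 3370, 3754, 3609 and 4501 CPM, and its level in CD8 T cells of 1499, 963, 1099 and 2055 CPM is under that in macrophages in every library. For TIGIT, Pvr stood at 47.5, 40.3, 49.99 and 69.7 CPM and Nectin2 at 12.6, 18.8, 11.7 and 44.2 CPM in dendritic cells, both highest in the combination. Nt5e (CD73), which turns the AMP left by CD39 into adenosine, stood at 97.1, 87.7, 98.0 and 72.9 CPM in macrophages and at 84.0, 69.3, 90.6 and 54.3 CPM in CD8 T cells, lowest in the combination in both, and the adenosine receptor Adora2b stood at 57.6, 80.5, 65.8 and 90.9 CPM in monocytes. Hmgb1, also a ligand of TIM-3, stood at 123, 109, 82.5 and 92.1 CPM in CD8 T cells, and Ceacam1 there at 10.1, 10.5, 12.9 and 16.5 CPM. In CD8 T cells 0 of 10 measured ligands and partners were 2-fold apart between the combination and isotype control, where 2.16% of all genes were as much higher and 1.25% as much lower.

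Genes with a like pattern over classes were ranked by the Pearson correlation of log2(CPM + 1) over 32 profiles, 8 classes in each of 4 libraries, which share libraries and cell types and are not independent. Classes needed at least 20 cells in every library, so Tregs, with 9 in the combination, were left out. The correlations compare classes and do not show which genes share cells within a class. Closest to Tox were Cd27 (0.969), a costimulatory receptor, Zfp827 (0.952) and Hdac7 (0.952). Tcf7 was closest to Prrc2b (0.970), Ablim1 (0.969) and Herc3 (0.967), and Lag3 to Suox (0.942) and Stk39 (0.912). Tigit was closest to Cldnd2 (0.964), Fhl2 (0.954) and Ncald (0.949) and Entpd1 to Ets2 (0.936), Kcnj2 (0.932) and Ier3 (0.929). For Havcr2 the closest were Matk (0.871), Crybg3 (0.846) and Parvb (0.840), and for Slamf6 they were Desi2 (0.833), Aopep (0.810) and Kremen1 (0.777). Among the 7 genes themselves Tox correlated with Tcf7 at 0.914, with Tigit at 0.907 and with Lag3 at 0.824, and Tcf7 with Entpd1 at -0.814.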

How the data were processed

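Sorted live CD45+ cells were profiled with the Chromium Flex probe assay. The authors deposited UMI counts, whole numbers with no normalization, made with Cell Ranger 7.0.0 on mm10 per the processing notes. The matrix headers name Cell Ranger 7.2.0. Cells under 500 detected genes or over 10% mitochondrial UMIs were removed, and the 5% of cells with the highest Scrublet scores in each library were left out as doublets, 1409 cells, since the caller's own limit marked only 7. Libraries were normalized and integrated on 3000 genes in Seurat 5.3.0 with sctransform 0.4.2 (R 4.3.3) and clustered on 30 principal components at resolution 0.8, which gave 28 clusters. Clusters were named from the marker lists. The limits for this were set after the clusters were seen: detection of the T or NK cell core genes of at least 0.6, set apart as mixed where C1qa, Csf1r and Adgre1 reached 0.8, at least 2 markers among the 10 leading genes for other types, and Csf1r detection of at least 0.9 for monocytes and macrophages. Many macrophage clusters had no fixed marker among their leading genes and rest on Csf1r alone. Cluster 17 of the NK and ILC1 class had Ncr1 as its only marker.

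Levels, shares and intervals came from Python 3.11.15 (scipy 1.17.1, pandas 2.3.3, numpy 2.4.6), and doublet scores from scanpy 1.11.5. The expected share at 2000 UMIs was taken over all draws from the hypergeometric law, and its interval from the expected number of cells, rounded. T cell subsets were set from all UMIs of a cell, so a shallow CD4 or CD8 T cell can lie outside both. So can a deeper cell with UMIs of both Cd4 and Cd8a or Cd8b1. Of the 110, 107, 68 and 121 T cells in no subset, 9, 10, 9 and 12 had under 2000 UMIs. Ratios were counted as past 2-fold among genes with at least 50 UMIs over the 2 libraries compared. Genes were named by a rule: the 7 genes, their 3 nearest genes, the 2 highest and 2 lowest ratios of each list in CD8 T cells, ligands in myeloid classes and marker checks. Other genes of a list past 2-fold were named after their values were seen. Some genes that the rule names are not reported here. The genes and lists were chosen with earlier results of these data known. Because there was 1 library per group, no p-value was computed. Coordinates are those of the GRCm38 gene annotation for the Ensembl identifiers in the matrices. Probe sequences, protein sequences and other experiments of the article were not used here.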

Additional observations from a re-analysis of the deposited data

How the results depend on the processing

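The values concern the combination against isotype control in CD8 T cells. Over 135 pairs of a result and another setting, 109 moved by less than the counting interval or, for counts, by less than 1.5 times, 25 moved further, and 1 whose interval does not hold 1 turned its direction. Slamf6 and Lag3, whose intervals hold 1, lay on either side of 1 over the settings. The Tox ratio, 0.178 in the report, stayed under 1 in all 14 settings, between 0.116 and 0.369, and the ratios to single antibodies A and B reached at most 0.424 and 0.864 over 12 settings. Clustering at resolution 1.2 gave 0.275 for Tox and 1.22 for Lag3, and resolution 0.4 gave 1.01 for Entpd1. With no doublets left out, clustering placed 195 and 92 cells of the 2 libraries in the class rather than 246 and 117, and Slamf6 was at 0.489. Defining CD8 T cells by more Cd8a and Cd8b1 than Cd4 UMIs, whatever Foxp3, gave 0.691 for Tcf7 and 1.24 for Havcr2. T cells with under 1% of their UMIs on macrophage markers gave 0.357 for Tcf7 and 0.415 for Slamf6. The mean over cells of UMIs per 10000 gave 0.473 for Slamf6. A minimum of 2 UMIs for a positive cell gave 0.129 for the Tox share, against 0.261 with 1 UMI.

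The number of the 7 genes past 2-fold, 1 in the report, was 3 with no doublets left out, with cells low in macrophage RNA and with the mean over cells, each time Tox, Tcf7 and Slamf6, all lower. It was 2, Tox and Tcf7, at resolution 0.4, with classes taken at the matched depth and in the cluster led by Ccl1, Ifng and Rgs16. It was also 2 in the other T cell cluster, where Tox was lower and Lag3 higher.

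Settings by cluster, with the CD8 cells of the mixed T cluster added, and without the cell with most UMIs of a gene were chosen after seeing the data. The cluster led by Ccl1, Ifng and Rgs16 alone gave 0.116 for Tox, 1.38 for Entpd1 and 0.277 for the share with Tcf7 and no Havcr2. The other T cell cluster alone gave 0.369 for Tox, 2.08 for Lag3 and 0.856 for Entpd1, the last with its direction turned and an interval that holds 1. Adding the CD8 cells of the mixed cluster gave 0.254 for Tox, 1.21 for Havcr2 and 0.980 for Lag3. The cause of these moves was not tested, beyond the smaller or larger sets of cells that the settings themselves make.

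With 1 library per group there was no replicate to leave out, and no spread between mice or libraries enters any interval. No paired analysis was possible because each group has 1 library. The groups and the libraries cannot be told apart, and the labels of the single antibodies conflict. Tigit in CD8 T cells, the 9 Tregs of the combination and Slamf6 in ILC1-like cells rest on few UMIs and carry wide intervals.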
